A study of Mus musculus with 12 samples.

Results

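The genes of blood and lymphatic vessels were followed in RNA-Seq libraries made from proximal colon, comparing EPR cKO mice with EPR fl/fl mice. The set holds 40 of the 55376 genes in the count table and was chosen by name, as genes known to be used by endothelial cells. Earlier results of these data were known when it was chosen. It has 33 genes of blood vessel endothelium and 7 of lymphatic endothelium, and 35 of them (28 and 7) passed the filter on low counts, a CPM (the count of a gene scaled to the size of its library) of at least 1 in at least 4 libraries. EPR is a long non-coding RNA of epithelial cells, with a short open reading frame in it. EPR fl/fl mice, the controls (6 mice), have loxP sites on both sides of the EPR promoter and exon 1. EPR cKO mice (6 mice) have the same floxed allele together with the CDX2P-NLS Cre transgene, in which human CDX2 promoter sequence drives Cre in epithelial cells of the colon, the cecum and the end of the ileum. The floxed line came from targeted embryonic stem cells and was bred with C57BL/6 mice, and all 12 mice were 12 weeks old. The driver is epithelial, so endothelial cells of either group were not the target of the deletion. Each library was made from 1 mouse and from the whole frozen proximal part of the colon, with its epithelium, smooth muscle, nerves, fat, immune cells and vessels. A lower level in such tissue can come from fewer endothelial cells or from less RNA per cell. It can also come from a larger share of other tissue in the piece, and these cannot be told apart.

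Endothelial cells line all vessels, hold on to each other through junctional proteins such as VE-cadherin, and are built and kept by signals through the VEGF and angiopoietin receptors under transcription factors of the ETS and SOX families. In the gut wall, blood capillaries below the epithelium have fenestrae closed by diaphragms, and specialised venules let leukocytes enter. Lymphatic capillaries drain fluid, fat and immune cells. Their endothelium is set apart by the transcription factor Prox1, the receptor Flt4 and the chemokine Ccl21.

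Many endothelial promoters and enhancers hold binding sites of ETS factors such as Erg, Fli1 and Ets1, whose core is GGAA. The 250 bases before the RefSeq start (GRCm38.p6) were found for 21 of the 40 genes, and AGGAAG, searched on both strands, occurred in 12 of these 21 windows (57.1%) against 29.5% of all 32851 mouse windows of that length. A match describes letters and not a bound site, and a window without one says nothing of the factor. Below are the windows of Eng and Flt1, which hold 2 matches each and are shown as examples of the motif, and of Erg, the tested gene whose groups did not overlap, which holds 0. The window of Clec14a, the tested gene whose level was not lower in EPR cKO libraries, also holds 0. Capitals mark AGGAAG, or CTTCCT where the match lies on the opposite strand.
Eng, plus strand, chr2:32646345-32646594: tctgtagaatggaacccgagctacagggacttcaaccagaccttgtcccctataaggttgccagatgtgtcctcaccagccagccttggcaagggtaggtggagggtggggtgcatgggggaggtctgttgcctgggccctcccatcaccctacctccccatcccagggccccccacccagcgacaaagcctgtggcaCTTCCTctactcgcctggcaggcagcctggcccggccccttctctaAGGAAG
Flt1, minus strand, chr5:147726012-147726261: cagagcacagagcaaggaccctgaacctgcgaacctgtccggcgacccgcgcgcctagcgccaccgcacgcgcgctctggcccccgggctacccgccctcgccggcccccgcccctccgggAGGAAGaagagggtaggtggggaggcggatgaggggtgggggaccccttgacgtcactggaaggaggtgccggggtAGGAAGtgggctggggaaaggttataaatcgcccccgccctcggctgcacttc
Erg, minus strand, chr16:95586594-95586843: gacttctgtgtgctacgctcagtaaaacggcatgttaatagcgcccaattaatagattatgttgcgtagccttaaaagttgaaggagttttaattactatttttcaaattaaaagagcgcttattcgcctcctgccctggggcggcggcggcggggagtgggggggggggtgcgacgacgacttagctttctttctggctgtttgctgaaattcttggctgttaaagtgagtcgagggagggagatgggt

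Total counts ran from 13093904 to 33211041 per library, at which 3 counts equal 0.0935 to 0.220 CPM. EPR itself, listed as Smim31, had 297 to 1474 counts in EPR fl/fl libraries and 0 to 10 in EPR cKO libraries. The balance of tissues was summarised in a composition score, the mean log2 CPM of 13 epithelium genes minus that of 10 smooth muscle genes, none of them vessel genes studied here. The score was 1.01 ± 0.26 (SD, n = 6) in EPR fl/fl against 2.14 ± 1.29 (SD, n = 6) in EPR cKO, a difference of 1.12 (two-sided exact permutation test, p = 0.0693). EPR cKO 1 stood apart at −0.22, below all other libraries, while EPR cKO 2 to 6 lay at 1.78 to 3.24, above all EPR fl/fl libraries (0.72 to 1.45). With EPR cKO 1 left out the difference was 1.597, given with no test since that library was set aside for its score. Summed CPM of the smooth muscle genes was 3378 to 5776 in EPR fl/fl, 9982 in EPR cKO 1 and 1207 to 2975 in EPR cKO 2 to 6. The comparisons below are therefore given with all libraries, at equal composition score (the score as a term beside genotype) and without EPR cKO 1.

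Vessel genes leaned towards lower levels in EPR cKO colon, but with all 12 libraries none passed the test. The log2 fold change was below 0 for 34 of the 35 tested genes (27 of 28 blood, 7 of 7 lymphatic), against 47.2% of all 15952 genes tested, and the exception was Clec14a. The median log2 fold change was −0.36 for the blood genes and −0.43 for the lymphatic genes, against 0.02 over all genes. By edgeR's quasi-likelihood test with adjustment over all genes, 0 of 35 were lower (1.57% of all genes tested) and 0 were higher (0.884%) at an adjusted p under 0.05. At an unadjusted p under 0.05, 4 blood genes (Erg, Emcn, Cd93 and Mmrn2) were lower against 7.12% of all genes, and 0 were higher against 11.1%. The thresholds of the study, which are stricter on both p and fold change, called 0 (lower in 0.169% of all genes). DESeq2 called 1 gene lower (Erg, Wald test, adjusted p = 0.0224) of the 34 to which it gave an adjusted p, against 2.97% of all genes. limma-voom was run with quality weights, set by how closely the values of a library follow its group and not by RNA quality. EPR cKO 1 had a weight of 0.243 against 0.719 to 1.88 for the others, and 15 of 35 were called lower against 11.9% of all genes.

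**Figure D1:**
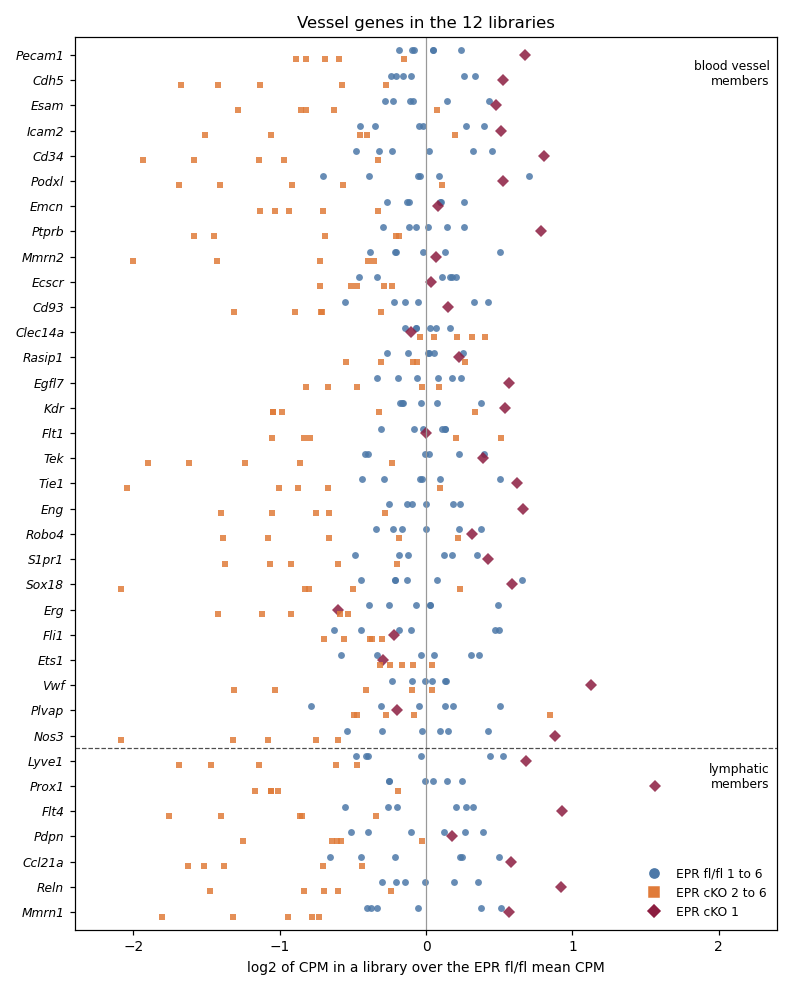
Level of each of the 35 tested genes in each library, as log2 of its CPM over the EPR fl/fl mean CPM (x axis); circles are EPR fl/fl 1 to 6, squares EPR cKO 2 to 6 and diamonds EPR cKO 1. Most squares lie left of the circles while the diamond is the rightmost point for 13 of 28 blood and 6 of 7 lymphatic genes.

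The result turned on 1 library. EPR cKO 1 was the highest of all 12 libraries for 13 of 28 blood genes and 6 of 7 lymphatic genes, and EPR cKO 5 was the lowest for 24 of 28 and 6 of 7. With EPR cKO 1 left out, 34 genes were tested. Of these, 18 were lower at an adjusted p under 0.05 (12 of 27 blood, 6 of 7 lymphatic) against 14.4% of all genes. In that fit 0 were higher, against 7.44%. Medians were then −0.65 (blood) and −0.98 (lymphatic), with the median of all genes at −0.00. The 18 were Pecam1, Cdh5, Cd34, Emcn, Ptprb, Mmrn2, Cd93, Tek, Eng, S1pr1, Erg, Nos3, Lyve1, Prox1, Flt4, Ccl21a, Reln and Mmrn1. Leaving out EPR cKO 1 took out the mouse with the most smooth muscle RNA, so of the comparisons that leave out 1 library this one also has the largest difference in composition score. EPR cKO 1 was also the highest library for many of these genes, so leaving it out favoured lower values in advance. The calls and adjusted p values without EPR cKO 1, here and below, therefore describe that fit and are no independent test.

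At equal composition score lower values no longer prevailed. Of the 35 genes, 17 had a log2 fold change below 0 and 18 above, 0 were called lower (1.53% of all genes) and 0 higher (0.508%), and at an unadjusted p under 0.05 Erg was lower and Prox1 higher. The median was 0.03 for blood and −0.01 for lymphatic genes. This even split rests on EPR cKO 1: without it 8 of 34 genes were below 0 and 26 above at equal score, with medians of 0.20 (blood) and 0.19 (lymphatic), and 0 were called. Along the score itself, in the same fit, 27 of 35 genes were lower per unit of score (20 of 28 blood, 7 of 7 lymphatic) against 18.5% of all genes, and 0 were higher against 12.9%. With EPR cKO 1 set aside, it was 8 of 34 (5 blood, 3 lymphatic) against 5.35%. No EPR cKO library had a score within the EPR fl/fl range, so the values at equal score rest on EPR cKO 1 lying below that range and the other 5 above it. A change in the endothelium itself and a change in the share of the wall that was epithelium cannot be told apart by this fit. Smooth muscle genes and genes of mural cells, which wrap vessels, both had their highest mean log2 CPM in EPR cKO 1 (9.39 and 5.45). Both had their lowest in EPR cKO 5 (6.39 and 3.25). How far the score follows the vessel wall itself was not tested.

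**Figure D2:**
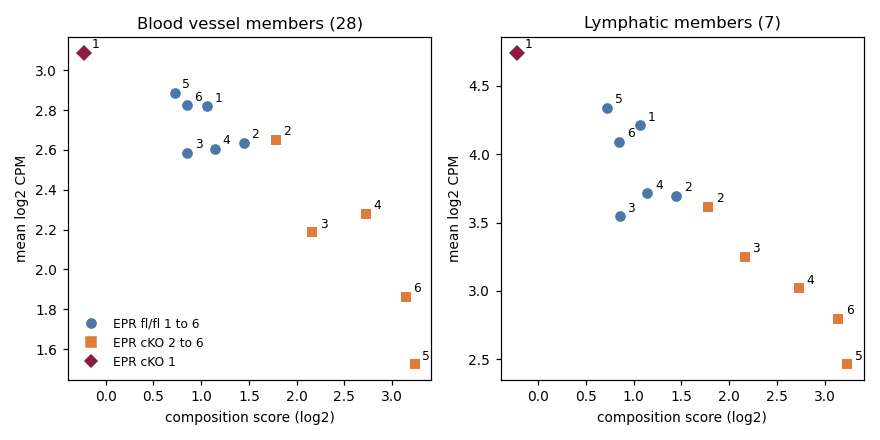
Mean log2 CPM of the 28 blood genes (left) and the 7 lymphatic genes (right) against the composition score of each library, with points numbered by replicate; circles are EPR fl/fl, squares EPR cKO 2 to 6 and the diamond EPR cKO 1. EPR cKO 1 has the lowest score (−0.22) and the highest means (3.09 and 4.74), and EPR cKO 5 the highest score (3.24) and the lowest means (1.52 and 2.46).

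Blood and lymphatic genes were alike in direction. The mean log2 CPM of the blood genes was 2.73 ± 0.13 (SD, n = 6) in EPR fl/fl against 2.27 ± 0.56 (SD, n = 6) in EPR cKO, with 3.09 in EPR cKO 1 and 2.10 ± 0.43 in the other 5. That of the lymphatic genes was 3.93 ± 0.32 and 3.31 ± 0.80, with 4.74 in EPR cKO 1 and 3.03 ± 0.44 in the other 5. The blood mean minus the lymphatic mean was −1.21 ± 0.19 in EPR fl/fl against −1.05 ± 0.31 in EPR cKO, a shift of 0.16 that is smaller than the spread of either group. EPR cKO 1 had the lowest value, −1.66, and in the other 5 EPR cKO libraries the balance was −0.93 ± 0.12, a shift of 0.28 that is larger than either spread. This shift was not tested. With all libraries every EPR cKO library lay below every EPR fl/fl library for 1 tested gene (Erg), against 1.47% of all genes. Without EPR cKO 1 this held for 6 (Cdh5, Emcn, Eng, Erg, Nos3 and Mmrn1), against 7.22%. For 0 genes did the EPR cKO libraries all lie above, against 1% of all genes and 4.22% without EPR cKO 1.

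**Figure D3:**
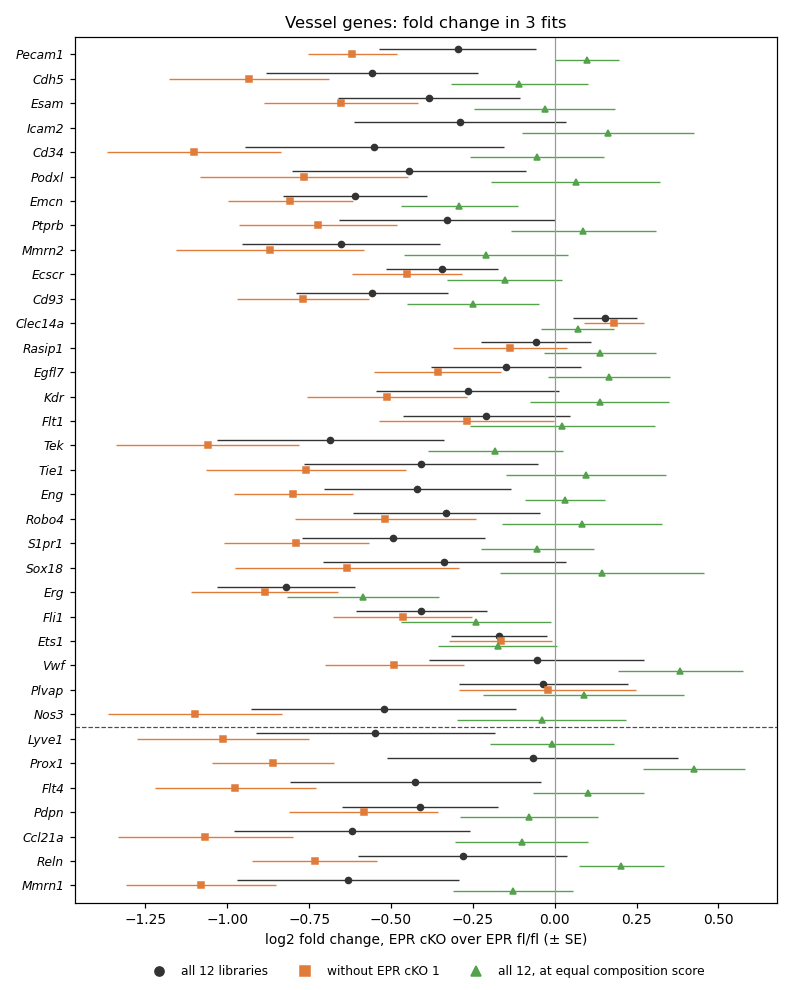
Log2 fold change of EPR cKO over EPR fl/fl with its standard error for the 35 tested genes, with all libraries (circles), without EPR cKO 1 (squares) and at equal composition score (triangles); Icam2 was not tested without EPR cKO 1. Circles lie left of 0 except for Clec14a (0.15), squares lie further left for most genes (median −0.65 for blood and −0.98 for lymphatic genes) and triangles scatter around 0.

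Among the proteins of the junctions and the cell surface, 14 genes were tested, with a median log2 fold change of −0.36 with all libraries, −0.72 without EPR cKO 1 and 0.02 at equal score. Pecam1 encodes an adhesion molecule of endothelial junctions that platelets and leukocytes also carry. Its lowest, median and highest CPM were 15.0, 16.9 and 20.1 in EPR fl/fl against 9.23, 11.0 and 27.4 in EPR cKO, and its log2 fold change was −0.30 (SE 0.24, edgeR adjusted p = 0.522). EPR cKO 1 gave the 27.4, and 4 of the other 5 EPR cKO libraries lay below every EPR fl/fl library. Without EPR cKO 1 Pecam1 fell by 0.62 on the log2 scale (SE 0.14, edgeR adjusted p = 0.00875). Cdh5 encodes VE-cadherin, the cadherin of endothelial adherens junctions. It had 6.14, 6.64 and 9.15 CPM in EPR fl/fl against 2.28, 4.09 and 10.5 CPM in EPR cKO (log2 fold change −0.56, SE 0.32, edgeR adjusted p = 0.376). All of EPR cKO 2 to 6, at 2.28 to 6.02 CPM, lay below the EPR fl/fl range, and without EPR cKO 1 Cdh5 fell by 0.93 (SE 0.24, edgeR adjusted p = 0.0181). At equal score Pecam1 stood at 0.10 and Cdh5 at −0.11.

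Mmrn2, a matrix protein of the vessel wall that binds the lectins Clec14a and Cd93, had the lowest fold change of this group. Its CPM was 3.74, 4.51 and 6.94 (lowest, median, highest) in EPR fl/fl against 1.22, 3.33 and 5.12 in EPR cKO, with a log2 fold change of −0.65 (SE 0.30, unadjusted p = 0.0495, edgeR adjusted p = 0.274). The 2 groups overlapped through EPR cKO 1 and EPR cKO 2. Its partner Cd93 stood at −0.56 and Emcn, a sialomucin of capillaries and veins, at −0.61, with −0.77 and −0.81 without EPR cKO 1. Clec14a itself ran the other way. It had 20.5, 22.4 and 25.5 CPM in EPR fl/fl against 21.2, 24.9 and 30.1 CPM in EPR cKO, a log2 fold change of 0.15 (SE 0.10, edgeR adjusted p = 0.420), and EPR cKO 1 was its lowest EPR cKO library. Clec14a was among the most even genes of the set, with an SD of 1.78 around 22.7 CPM in EPR fl/fl, and no other gene's exons overlap it in the annotation. It was also near 0 along the composition score (0.07 per unit, edgeR adjusted p = 0.374), where Pecam1 was at −0.45 (edgeR adjusted p = 9.88e-06). With EPR cKO 1 left out, these values per unit were −0.06 for Clec14a (edgeR adjusted p = 0.832) and −0.40 for Pecam1 (edgeR adjusted p = 0.0539).

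The sialomucins Cd34 and Podxl, which stromal or epithelial cells also make, had log2 fold changes of −0.55 and −0.44. Cd34 fell by 1.10 without EPR cKO 1. The junction molecule Esam stood at −0.38, the phosphatase Ptprb (VE-PTP, which acts on Tie2 and VE-cadherin) at −0.33, the surface protein Ecscr at −0.35 and the leukocyte ligand Icam2 at −0.29. Rasip1, which vessels need to form a lumen, and the secreted protein Egfl7 were near 0 with all libraries, at −0.06 and −0.15. Without EPR cKO 1 they stood at −0.14 and −0.36 (edgeR adjusted p = 0.607 and 0.198). Rasip1 has 22.5% of its exon bases under antisense genes and Egfl7 has 14.1% under a gene of the same strand with 0 counts.

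All 7 tested receptors were lower in sign, with a median of −0.41 (−0.76 without EPR cKO 1, 0.03 at equal score). Kdr encodes VEGF receptor 2, the main growth receptor of blood endothelium. It had 10.7, 11.3 and 15.7 CPM in EPR fl/fl against 5.86, 7.90 and 17.6 CPM in EPR cKO (log2 fold change −0.27, SE 0.28, edgeR adjusted p = 0.625). EPR cKO 1, at 17.6 CPM, lay above the EPR fl/fl range, EPR cKO 2 lay within it at 15.2 CPM, and the other 4 lay below it. Without EPR cKO 1 Kdr stood at −0.51 (SE 0.24, edgeR adjusted p = 0.149). Flt1, VEGF receptor 1, was the receptor closest to 0, at −0.21 (SE 0.25, edgeR adjusted p = 0.674). Its CPM was 4.54, 5.78 and 6.15 in EPR fl/fl against 2.71, 4.43 and 8.01 in EPR cKO. EPR cKO 2 gave the 8.01 while EPR cKO 1, at 1.00 times the EPR fl/fl mean, was in the middle.

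Tek encodes Tie2, the angiopoietin receptor, and had the lowest fold change among receptors. Its CPM was 5.99, 8.06 and 10.5 in EPR fl/fl against 2.15, 3.903 and 10.5 in EPR cKO (log2 fold change −0.69, SE 0.35, edgeR adjusted p = 0.313). The median of the EPR cKO libraries was 0.484 times that of EPR fl/fl, and EPR cKO 1 was close to the highest control. When EPR cKO 1 was left out, Tek fell by 1.06 (SE 0.28, edgeR adjusted p = 0.0188), while Tie1, its partner receptor, stood at −0.76 (SE 0.30, edgeR adjusted p = 0.0909). Eng, the TGF-beta family co-receptor endoglin, stood at −0.42, fell by 0.80 without EPR cKO 1 and was at 0.03 (SE 0.12) at equal score. S1pr1, the sphingosine 1-phosphate receptor that also guides lymphocytes, stood at −0.49, and Robo4, a guidance receptor of endothelium, at −0.33.

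The transcription factors gave the gene whose groups were furthest apart. Erg, an ETS factor that keeps endothelial cells in their state, had 1.59, 2.06 and 2.94 CPM (lowest, median, highest) in EPR fl/fl against 0.779, 1.24 and 1.44 CPM in EPR cKO. Every EPR cKO library, EPR cKO 1 included at 0.659 times the EPR fl/fl mean, lay below every EPR fl/fl library. Its log2 fold change was −0.82 (SE 0.21, unadjusted p = 0.00178), and with adjustment over all genes it missed the threshold (edgeR adjusted p = 0.0617). It passed without EPR cKO 1 (−0.89, edgeR adjusted p = 0.0156) and by DESeq2. At equal composition score it stood at −0.59 (SE 0.23, edgeR adjusted p = 0.244), the lowest of all 35 genes. Along the score its change was −0.21 per unit (edgeR adjusted p = 0.190), and −0.56 without EPR cKO 1 (edgeR adjusted p = 0.172).

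The other ETS factors, Ets1 and Fli1, are also used by leukocytes, and neither passed the test. Ets1 had 21.4, 32.2 and 41.1 CPM in EPR fl/fl against 25.7, 27.8 and 32.8 CPM in EPR cKO, so the EPR cKO libraries lay inside the EPR fl/fl range (log2 fold change −0.17, SE 0.15, edgeR adjusted p = 0.550). Its change per unit of score was 0.01, and −0.15 without EPR cKO 1. Fli1 stood at −0.41, or −0.24 at equal score. Of the SOX factors of arteries and lymphatic precursors, Sox18 was tested and stood at −0.34. Sox17 and Sox7 were under the filter, with 99 counts in 6 EPR fl/fl libraries against 45 in 6 EPR cKO libraries for Sox17 and 55 against 40 for Sox7. For Sox17, 25 of the 45 counts came from EPR cKO 1, and the other 5 libraries, at 0.0935 to 0.301 CPM, lay below the EPR fl/fl range of 0.645 to 0.824. In a fit with no filter its log2 fold change was −1.0 (SE 0.51, edgeR adjusted p = 0.526).

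**Figure D4:**
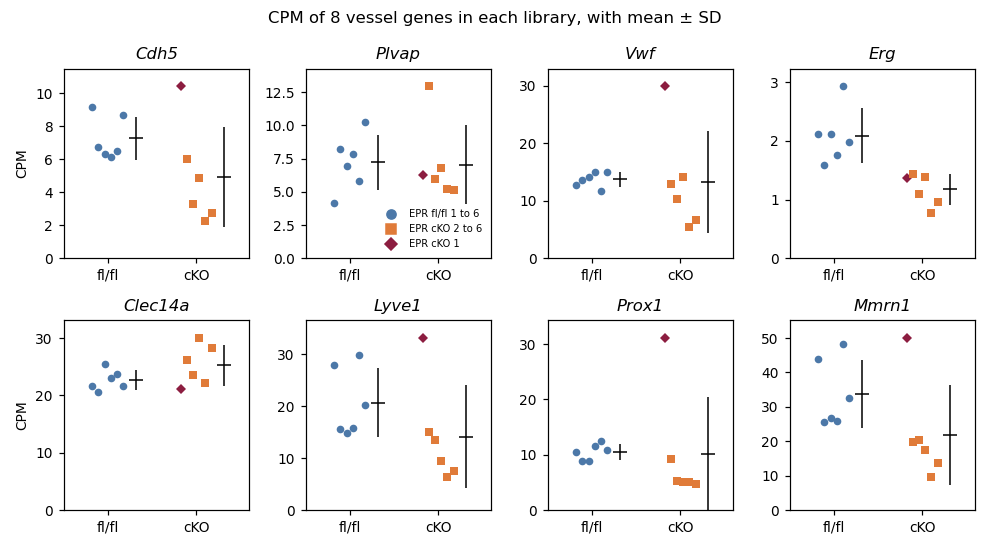
CPM of 8 vessel genes in each library, with the mean ± SD (n = 6) beside each group; circles are EPR fl/fl, squares EPR cKO 2 to 6 and diamonds EPR cKO 1, and the lower bar of Prox1 is cut at 0. Cdh5, Vwf, Lyve1, Prox1 and Mmrn1 have their highest value in EPR cKO 1, Plvap has it in EPR cKO 2 (12.97 CPM), the groups of Erg do not overlap, and Clec14a reaches 30.1 CPM in EPR cKO.

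None of the 3 genes of vessel function passed the test with all libraries. Plvap encodes the protein of the diaphragms that close fenestrae and caveolae, and is used to judge the barrier of gut vessels. Its CPM was 4.17, 7.42 and 10.2 in EPR fl/fl against 5.11, 6.12 and 12.97 in EPR cKO, and its log2 fold change of −0.03 (SE 0.26, edgeR adjusted p = 0.952) was the closest to 0 of the 35 genes. The groups overlapped throughout and the highest library was EPR cKO 2, not EPR cKO 1. Its value was −0.02 without EPR cKO 1 (SE 0.27) and −0.30 without EPR cKO 2, so that the value near 0 rests on EPR cKO 2.

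Vwf, the clotting protein stored by endothelium, had 11.7, 13.9 and 15.1 CPM in EPR fl/fl against 5.52, 11.6 and 30.0 CPM in EPR cKO (log2 fold change −0.06, SE 0.33, edgeR adjusted p = 0.940). EPR cKO 1 stood at 2.19 times the EPR fl/fl mean and the other 5 at 0.722 times. Its value was −0.49 without EPR cKO 1 (edgeR adjusted p = 0.114) and 0.38 at equal score (edgeR adjusted p = 0.371), and neither passed. Nos3, the endothelial nitric oxide synthase, had 1.92, 2.85 and 3.73 CPM in EPR fl/fl against 0.655, 1.48 and 5.12 CPM in EPR cKO (log2 fold change −0.52, SE 0.41, edgeR adjusted p = 0.507). Without EPR cKO 1 the groups did not overlap and Nos3 fell by 1.10 (edgeR adjusted p = 0.0131). Of its exon bases 32.3% lie under antisense genes, and the strand setting of the counting was not given in the sources used here.

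The genes by which leukocytes enter through venules were under the filter on low counts. Madcam1, the address protein of gut venules for lymphocytes, had 1 to 9 counts per library in both groups, 30 in all in EPR fl/fl against 25 in EPR cKO. Its CPM was 0.0717, 0.178 and 0.293 in EPR fl/fl against 0.0551, 0.190 and 0.382 in EPR cKO, and the groups overlapped throughout. Ackr1, which binds chemokines on venules, had 93 counts against 84, of which 33 came from EPR cKO 1. Its count is uncertain, since 21.5% of its exon bases overlap Cadm3 on the same strand. Sele, E-selectin of activated endothelium, had 1 count against 2. In a fit with no filter the log2 fold change was −0.14 for Madcam1 (SE 0.48, edgeR adjusted p = 0.914) and −0.12 for Ackr1 (SE 0.45, edgeR adjusted p = 0.928), and for Sele both groups were within 3 counts. A change in these 3 genes was not detectable at this depth.

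The 7 lymphatic genes were all tested. Lyve1 encodes a hyaluronan receptor of lymphatic capillaries that some macrophages share. It had 14.9, 17.95 and 29.8 CPM in EPR fl/fl against 6.42, 11.4 and 33.1 CPM in EPR cKO (log2 fold change −0.55, SE 0.37, edgeR adjusted p = 0.439). EPR cKO 1 was the highest library, and 4 of the other 5 lay below the EPR fl/fl range. With EPR cKO 1 left out, Lyve1 fell by 1.01 (SE 0.26, edgeR adjusted p = 0.0173), and at equal score it stood at −0.01 (SE 0.19).

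Prox1, the transcription factor that sets lymphatic identity and is also found in enteroendocrine cells, moved most with EPR cKO 1. Its CPM was 8.81, 10.7 and 12.5 in EPR fl/fl against 4.68, 5.13 and 31.2 in EPR cKO. EPR cKO 1 had 2.96 times the EPR fl/fl mean and the other 5 had 0.556 times it. The log2 fold change was −0.07 with all libraries (SE 0.44, edgeR adjusted p = 0.945), −0.86 without EPR cKO 1 (SE 0.19, edgeR adjusted p = 0.00823) and 0.43 at equal score (SE 0.16, edgeR adjusted p = 0.209). Its change along the score was the steepest of the 35 genes with all libraries, −0.79 per unit (edgeR adjusted p = 3.04e-06), but −0.51 without EPR cKO 1 (edgeR adjusted p = 0.0853), where it was the shallowest of the 7 lymphatic genes.

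Ccl21a, the chemokine that draws dendritic cells and T cells into lymphatics, had the highest level per length of the set in EPR fl/fl, 16.3 CPM per kilobase. It had 9.002, 14.4 and 20.1 CPM in EPR fl/fl against 4.58, 7.09 and 21.2 CPM in EPR cKO (log2 fold change −0.62, SE 0.36, edgeR adjusted p = 0.378). With EPR cKO 1 set aside, it fell by 1.07 (edgeR adjusted p = 0.0152). Of its stretches of 50 bases 71.6% occur in near-identical genes, all of which had 0 counts, so its level is uncertain as a count of 1 gene. Mmrn1, a secreted protein of lymphatic endothelium and platelets, had the lowest fold change of the lymphatic genes. It had 25.6, 29.6 and 48.2 CPM in EPR fl/fl against 9.66, 18.6 and 50.1 CPM in EPR cKO (log2 fold change −0.63, SE 0.34, edgeR adjusted p = 0.341). All of EPR cKO 2 to 6 lay below the EPR fl/fl range, and without EPR cKO 1 Mmrn1 fell by 1.08 (edgeR adjusted p = 0.00755).

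Flt4, VEGF receptor 3, stood at −0.43 and fell by 0.98 without EPR cKO 1. Reln, the secreted protein reelin of lymphatic and mesenchymal cells, stood at −0.28 and fell by 0.73. Pdpn, podoplanin, which fibroblasts also carry, stood at −0.41 with all libraries and at −0.58 without EPR cKO 1 (SE 0.23, edgeR adjusted p = 0.0827).

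Lists of related genes, also fixed by name with earlier results of these data known, gave the setting. Of all genes tested 1.57% were lower and 0.884% higher with all libraries. With all libraries 0 of 27 further endothelial genes tested passed in either direction (median −0.26, and 22 below 0), 0 of 7 further lymphatic genes (median −0.25), 0 of 9 genes of mural cells, which wrap vessels (−0.21), and 0 of 10 genes of Notch and BMP signalling in vessels (−0.17). Of 18 vessel growth ligands and co-receptors 1 was lower, Nrp2, a co-receptor for VEGF-C in lymphatics. It had 112 ± 20.8 CPM (SD, n = 6) in EPR fl/fl against 60.6 ± 19.7 CPM in EPR cKO (log2 fold change −0.89, SE 0.19, edgeR adjusted p = 0.0281), with groups that overlapped. At equal score Nrp2 stood at −0.58 (edgeR adjusted p = 0.0532). Which cells of the wall gave its RNA was not tested. Of 6 genes of leukocyte adhesion 1 was lower, Chst4, a sulfotransferase of venule ligands that goblet cells also use. It had 32.4 ± 2.91 CPM against 19.8 ± 3.85 CPM (log2 fold change −0.71, SE 0.13, edgeR adjusted p = 0.00996), with groups that did not overlap, and it was at −0.93 at equal score. Goblet cell genes fell in the same libraries, 5 of 8 (Muc2, Tff3, Clca1, Zg16 and Spdef), and their part in the value of Chst4 was not tested. The water channel Aqp1, which epithelial cells may also use, was lower at equal score (−0.87, SE 0.17, edgeR adjusted p = 0.0206).

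Several other cell types of the wall had lower levels in the same libraries. Without EPR cKO 1, 14.4% of all genes were lower and 7.44% higher at an adjusted p under 0.05. In that fit genes were lower in 10 of 10 of smooth muscle (median −1.28), 7 of 10 of enteric neurons and glia (−0.94) and 7 of 8 of adipocytes (−2.03). They were lower in 5 of 10 of fibroblasts (−0.69), 5 of 9 of mural cells (−0.78) and 3 of 10 of macrophages (−0.51). Of epithelium, 6 of 13 were higher (0.29). The smooth muscle and epithelium lists make up the score for which EPR cKO 1 was set aside. Leaving that library out therefore favoured their shifts in advance, and these 2 lists show nothing further. In summed CPM it also exceeded the EPR fl/fl maximum for fibroblast (3523 against 2049), neuron and glia (149 against 86.3) and mural genes (1173 against 777). The same held for further lymphatic (151 against 102) and further endothelial genes (849 against 788). Lower values of these lists were favoured in advance too. Its adipocyte and macrophage sums lay within the EPR fl/fl range. T cell genes (1 of 9 lower, median −0.09) and B cell genes (0 of 3, median 0.10) stayed near 0 in the median in that fit. With all libraries at equal composition score their medians were −0.64 and −0.60. There the medians were −0.77 for adipocytes and −0.08 for macrophages. Fibroblasts (0.16), mural cells (0.15) and neurons and glia (0.30) lay above 0, and 0 genes of these lists passed. Of the other endothelial genes 8 of 26 were lower and 1 higher, and of the vessel growth ligands 10 of 18 were lower. Of the leukocyte adhesion genes 3 of 6 were lower and of the further lymphatic genes 3 of 7. Of the Notch and BMP genes 1 of 10 was lower and 1 higher, near the shares of all genes. The blood and lymphatic medians of −0.65 and −0.98 lay between those of the macrophage and adipocyte lists, neither of which enters the score. With all libraries no gene of the smooth muscle, neuron, fibroblast, adipocyte, macrophage or epithelium lists passed. Summed CPM of the epithelium genes was 10070 to 14199 in EPR fl/fl, 11423 in EPR cKO 1 and 14179 to 17485 in EPR cKO 2 to 6.

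**Figure D5:**
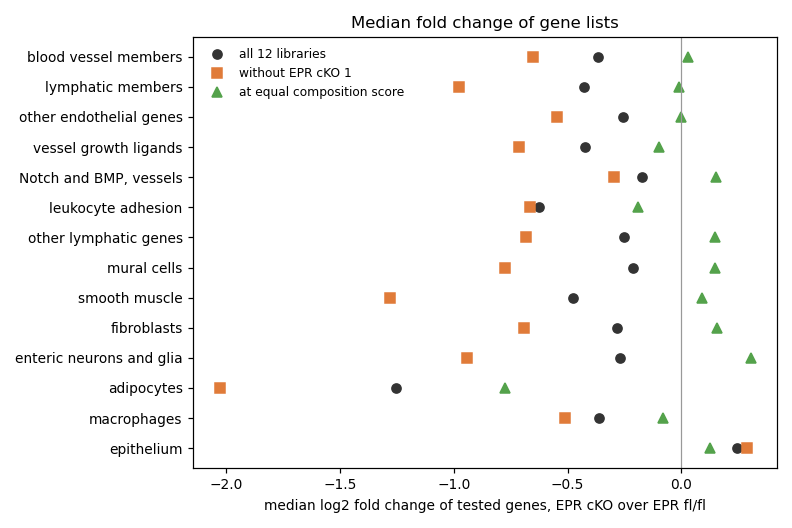
Median log2 fold change of EPR cKO over EPR fl/fl for the tested genes of each list, with all libraries (circles), without EPR cKO 1 (squares) and at equal composition score (triangles). Blood and lymphatic genes (−0.36 and −0.43 with all libraries) lie among the lists of the other cells of the wall, adipocytes lie furthest to the left (−2.03 without EPR cKO 1), and epithelium lies to the right of 0 (0.25 with all libraries).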

How the data were processed

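The deposited values were raw counts per gene in 1 table of 55376 genes with a summed exon length. The authors made them from strand-specific total RNA libraries depleted of ribosomal RNA, aligned with STAR (2.5.3a in the submitters' processing notes) to mm10 and counted with featureCounts. Strand and multi-mapping settings of the counting are not given in the sources used here. All 12 columns matched a sample by name and 0 were left over. The exon length column, deposited in bases, served for CPM per kilobase.

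Genes with at least 1 CPM in at least 4 libraries, the study's filter, entered edgeR 4.0.16 (TMM, quasi-likelihood test) in R 4.3.3, with Benjamini-Hochberg adjustment over all 15952 genes. The study's methods name a Bayesian statistic with Benjamini-Hochberg correction and a figure legend names Student's test, with no tool given for either, so a count test was used. DESeq2 1.42.0 and limma 3.58.1 were alternatives. The composition score used log2 CPM with a prior count of 2. The fitting code was tested on simulated data.

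The genes and lists were chosen with earlier results of these data known. By rule, values of libraries are given for Pecam1, Cdh5, Kdr, Plvap, Vwf, Madcam1, Lyve1, Prox1 and Ccl21a and for the genes with the highest and lowest fold change of each role group, and other list genes are named where they passed. T cell, B cell and erythrocyte lists were checked too, with 0 of 9, 0 of 3 and 0 of 5 genes passing with all libraries. Their median log2 fold changes were −0.17, −0.02 and −1.11. Within each group, libraries came from separate mice, and no pair of libraries matched within counting error (smallest chi-square per gene 24.8). Depth was 13093904 to 33211041 counts per library, and limits from counts cover counting error only. The median standard error of the log2 fold change was 0.14. Sequences are from RefSeq (GRCm38.p6), found for 21 of 40 genes, and overlaps of exons are from the count table's coordinates and an mm10 annotation.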

Additional observations from a re-analysis of the deposited data

Results flagged for a closer look

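Of 76 sets of 6 values tested for a library far from the others of its group, 12 held one, where chance gives about 1 in 20 sets, or 3.8. The sets come from the same 12 libraries and are not independent, so the 3.8 is only a rough guide. In 11 of the 12 the library was EPR cKO 1, as the highest of the EPR cKO group. It had 27.4 CPM of Pecam1 with the next library at 15.4, 46.8 of Cd34 with the next at 21.4, 18.8 of Eng with the next at 9.75, 30.0 of Vwf with the next at 14.1 and 5.12 of Nos3 with the next at 1.83. Among lymphatic genes it had 33.1 CPM of Lyve1 with the next at 14.9, 31.2 of Prox1 with the next at 9.20, 24.9 of Flt4 with the next at 10.3, 21.2 of Ccl21a with the next at 10.5, 44.1 of Reln with the next at 19.7 and 50.1 of Mmrn1 with the next at 20.3. The same library had the lowest composition score, −0.22, and the highest sum of smooth muscle genes, 9982 CPM. The remaining one was EPR cKO 2 for Plvap, with 12.97 CPM and the next library at 6.79.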

How the results depend on the processing

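With all libraries 0 vessel genes were lower at an adjusted p under 0.05. That count was 1 by DESeq2's Wald test (2.97% of all genes lower) and 15 by limma-voom with quality weights (11.9%), and it ran from 0 to 18 when each library was left out in turn, with 18 when EPR cKO 1 was left out (14.4% of all genes) and 0 for each of the other 11. It stayed at 0 with DESeq2 size factors, total counts without TMM, no filter, filterByExpr and the replicate block. The correlation of deviations of same-numbered libraries ran from −0.24 to 0.34, and 2 of 6 libraries matched their own number best. These values cannot show whether the mice were paired, and the labels do not say. No gene was higher in any of these settings.

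The composition score difference ran from 0.905 to 1.597 with a library left out, with 1.597 without EPR cKO 1. Signs of 4 genes near 0 turned when a library was left out: log2 fold changes ran from −0.14 to 0.027 for Rasip1, from −0.49 to 0.11 for Vwf, from −0.30 to 0.087 for Plvap and from −0.86 to 0.072 for Prox1. The cause was not tested. At equal composition score 0 genes were called in any of 15 settings (smallest adjusted p = 0.115), and 0 to 11 genes changed sign, 11 of 34 without EPR cKO 1. In that setting the groups share no range of the score. Values per unit of score, and values of lists without EPR cKO 1, were added after seeing the data. Restricting the blood genes to the 18 tested that other colon cells are not known to use gave a median of −0.34. With 6 mice a group and 1 that stands apart, and with 5 genes under the filter, moderate changes in low genes were not detectable.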

Other observations

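Of the 18 growth ligands and co-receptors tested, 17 had a log2 fold change below 0 with all libraries and 1 passed (Nrp2). The value was −0.32 for Vegfc and −0.24 for Vegfd, ligands of Flt4, −0.91 for Adamts3, which activates Vegfc, and −0.23 for its cofactor Ccbe1, and edgeR's adjusted p was 0.0654 for Adamts3. Without EPR cKO 1, Adamts3 fell by 1.03 (edgeR adjusted p = 0.0104) and Vegfc by 0.51 (edgeR adjusted p = 0.0418). At equal composition score they stood at −0.64 and −0.07. These 4 genes were picked after their values were seen, and nothing particular to them is shown.

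Efnb2 and Jag1 were picked after their values were seen. Among the further endothelial, Notch and BMP genes they were the 2 called higher without EPR cKO 1, against 7.44% of all genes. There, Efnb2 rose by 0.28 and Jag1 by 0.38 on the log2 scale (edgeR adjusted p = 0.0456 for each), and with all libraries they stood at 0.28 and 0.36 and did not pass (edgeR adjusted p = 0.112 and 0.165). Efnb2 had 124 ± 16.4 CPM (SD, n = 6) in EPR fl/fl against 150 ± 9.84 CPM in EPR cKO. Some other arterial and Notch genes had values below 0 without EPR cKO 1 and did not pass, with −0.75 for Hey1, −0.53 for Gja5, −0.36 for Notch4 and −0.29 for Dll4. Others of these lists were near 0 there, with −0.05 for Notch1, −0.07 for Unc5b and −0.01 for Bmx. Smad6 stood at 0.32 (edgeR adjusted p = 0.170). With all libraries Gja5 stood at 0.13. Epithelial cells use Efnb2 and Jag1 as well, and the part of the epithelium in their values was not tested.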
